A study of Homo sapiens with 3 samples.

Results

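The 10 genes described here encode heat shock proteins of the cytosol and the mitochondria: HSP90AA1, HSP90AB1, HSPA1A, HSPA1B, HSPA8, HSPH1, DNAJB1, HSPB1, HSPD1 and HSPE1. They were chosen by name, 10 of 33423 gene rows in the count tables, and their levels, detection and co-expression were taken in each library. Expression had been measured by Drop-seq, a droplet method that tags the 3′ ends of mRNA molecules of single cells with unique molecular identifiers (UMIs), in 2 human prostate cancer cell lines that the labels call enzalutamide-sensitive. LNCaP–ENZ168 held LNCaP cells kept for 168 h in 10 µM enzalutamide (ENZ), a drug given against prostate cancer. VCaP–ENZ48 held VCaP cells kept for 48 h in the same dose, and VCaP parental held VCaP cells kept for 48 h in 0.1% DMSO, the vehicle. LNCaP was grown in RPMI and VCaP in DMEM, and all cells were detached with the trypsin substitute TrypLE. With 1 library per group there are no replicates to set a difference against, and nothing was tested. Intervals are exact 95% intervals and cover counting error only.

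Heat shock proteins are chaperones that bind unfolded or immature proteins and help them fold. HSP90 completes the folding of client proteins such as kinases. HSP70 proteins work in cycles driven by J-domain partners and exchange factors and hand clients on to HSP90, small heat shock proteins hold unfolded chains, and HSPD1 with its lid HSPE1 forms the folding chamber of the mitochondrial matrix. Some members are made in every growing cell, whereas others are induced by stress when heat shock factor 1 binds heat shock elements, short inverted repeats of GAA and TTC, in their promoters.

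After filtering, 944, 997 and 947 cells remained (LNCaP–ENZ168 first, then VCaP parental, then VCaP–ENZ48), with medians of 5389, 17817 and 11224 UMIs per cell and mitochondrial shares of 8.94%, 6.24% and 7.49%. The labels held against markers: ERG, which VCaP expresses from a gene fusion, gave 105 and 57.1 CPM (UMIs per 1000000 UMIs of the library) in VCaP parental and VCaP–ENZ48 and had no UMI in LNCaP–ENZ168, which leaves room for at most 0.475 CPM. All 6 epithelial and prostate luminal markers were found in each library, with sums of 1585 to 2298 CPM. The 5 immune markers summed to at most 0.629 CPM and the 4 endothelial markers to at most 2.06 CPM, and 4, 1 and 2 of the immune and 3, 2 and 4 of the endothelial markers were at 0. The 5 fibroblast markers summed to 2.06, 21.6 and 26.6 CPM, with 2, 1 and 1 at 0 and nearly all of it LUM in the VCaP libraries. No 2 libraries shared a cell barcode. The last base of the barcode was not resolved in 205, 859 and 820 of the cells kept. Each library held 1 cell line, with no second cell type to give a background from free RNA, so none can be set beside low counts such as those of HSPB1 in VCaP or HSPA1A in LNCaP, and doublets were not identified.

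Together the 10 genes gave 61597 of the UMIs in LNCaP–ENZ168, 162966 in VCaP parental and 105228 in VCaP–ENZ48. These were 0.976% (0.968 to 0.983%), 0.835% (0.831 to 0.839%) and 0.736% (0.731 to 0.740%) of all UMIs. The share was thus highest in LNCaP–ENZ168 and lowest in VCaP–ENZ48, with no overlap of the intervals. HSP90AB1 held the largest part of it in each library, at 34.2%, 41.3% and 47.8% of the UMIs of the 10 genes. HSP90AA1 followed in LNCaP–ENZ168 with 29.9%, whereas HSPD1 followed in VCaP parental with 20.6% and HSPA8 in VCaP–ENZ48 with 17.0%. UMIs count 3′ ends and are not scaled by transcript length, so these are shares of counted molecules.

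**Figure D1:**
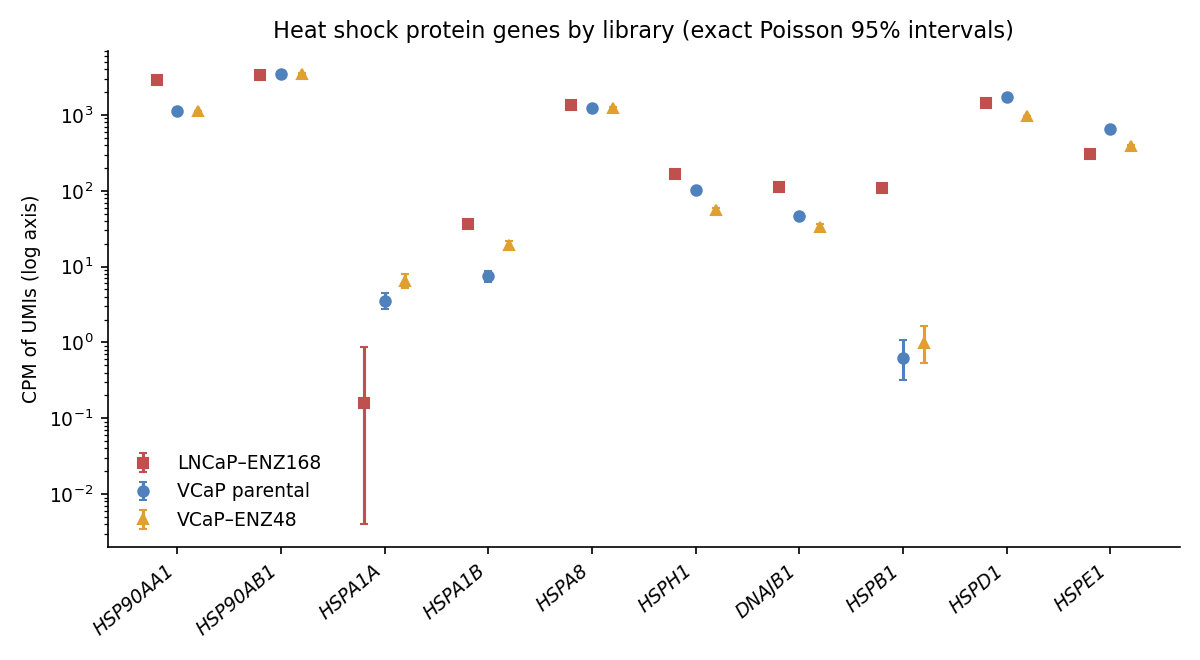
Level of each heat shock protein gene in each library, as CPM of UMIs summed over cells on a log axis. Squares, circles and triangles are LNCaP–ENZ168, VCaP parental and VCaP–ENZ48, and bars are exact Poisson 95% intervals of the counts. HSP90AB1 and HSPA8 lie close together in all libraries, whereas HSPB1 is at 108.5 CPM in LNCaP–ENZ168 and under 1 CPM in both VCaP libraries.

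Setting VCaP–ENZ48 against VCaP parental addresses what differs in VCaP after a short exposure to ENZ. The mitochondrial pair HSPD1 and HSPE1 and the HSP70 partner HSPH1 were lower in VCaP–ENZ48, the HSP70 gene HSPA1B was higher, and HSP90AA1, HSP90AB1 and HSPA8 had ratios within 0.03 of 0. Ratios are log2 ratios of CPM + 1, and their exact conditional intervals are for the ratio of counts without the + 1. Of the 10 genes, 8 had a mean of at least 10 CPM. HSPB1 and HSPA1A did not. The members' median ratio was 0.0019, and that of the 8 was -0.24. The median of all 7729 genes with at least 10 CPM was -0.066, with quartiles of -0.44 and 0.34. With a minimum of 50 CPM the median was -0.23 over 2901 genes. One member, HSPA1B, was at least 2-fold higher, and no member was at least 2-fold lower. Of the 7729 genes 8.19% were at least 2-fold higher and 6.77% at least 2-fold lower. HSPA1B, at 7.53 CPM in VCaP parental and 19.3 CPM in VCaP–ENZ48, passed the minimum of 10 CPM only through the library where it was higher. Scaling by TMM factors moved the median of all genes by -0.27, median-of-ratios scaling by -0.21 and leaving out mitochondrial and ribosomal protein genes by 0.16, so ratios close to 0 have no fixed sign. Under TMM scaling no member was at least 2-fold higher and 3 were at least 2-fold lower, HSPH1, HSPD1 and HSPE1.

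The comparison of LNCaP–ENZ168 with VCaP–ENZ48 set both lines under the drug side by side. HSP90AA1, HSPH1, DNAJB1 and HSPB1 were at least 2-fold higher in LNCaP–ENZ168 and HSPA1A was at least 2-fold lower. Of all 8854 genes with at least 10 CPM, 35.5% were at least 2-fold higher and 11.1% at least 2-fold lower. HSPA1A was under 10 CPM in both libraries and the other 9 genes passed that minimum. HSPB1, at 0.979 CPM in VCaP–ENZ48, passed it only through LNCaP–ENZ168. The members' median ratio was 0.72, that of the 9 was 0.88 and that of all genes was 0.65, with quartiles of -0.044 and 1.29. TMM scaling moved the median of all genes by -0.55 and median-of-ratios scaling by -0.51. Line, medium, time and preparation differ together here and cannot be told apart, and the comparison shares the VCaP–ENZ48 library with the other one.

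**Figure D2:**
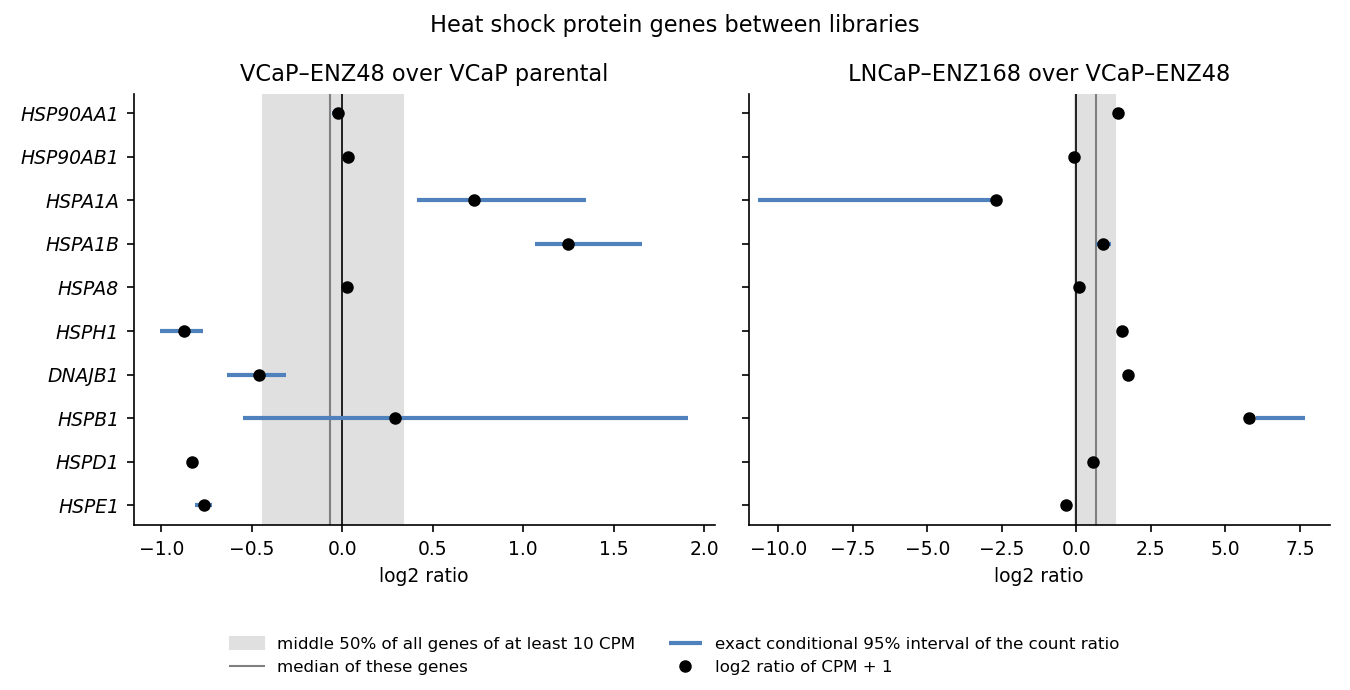
Log2 ratios of the 10 genes for VCaP–ENZ48 over VCaP parental (left) and LNCaP–ENZ168 over VCaP–ENZ48 (right). Dots are log2 ratios of CPM + 1, blue lines are exact conditional 95% intervals of the count ratio, and the grey band and line are the middle 50% and the median of all genes of at least 10 CPM. On the left HSPH1, HSPD1, HSPE1 and DNAJB1 lie below the band and HSPA1A and HSPA1B above it. On the right HSPB1 lies far above the band at 5.79.

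HSP90AA1 is the inducible and HSP90AB1 the constitutive form of cytosolic HSP90. HSP90AA1 (GRCh38 chromosome 14, 102080742 to 102139699, minus strand) reached 2918 CPM (2876 to 2960) in LNCaP–ENZ168, 1134 CPM (1119 to 1149) in VCaP parental and 1115 CPM (1098 to 1133) in VCaP–ENZ48. The VCaP libraries overlapped in their intervals and LNCaP–ENZ168 stood above both. The log2 ratio was -0.02 (-0.054 to 0.0048) between the VCaP libraries. It was 1.39 (1.36 to 1.42) for LNCaP–ENZ168 over VCaP–ENZ48, which lay above 78.1% of all genes tested, and it ran from 0.86 to 1.48 over 13 alternatives. The second interval lies above 0, but genes as a whole were also higher on this scale, and relative to their median the ratio was 0.73.

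HSP90AB1 (chromosome 6, 44246166 to 44253888, plus strand) was at 3340 CPM (3295 to 3385) in LNCaP–ENZ168, 3447 CPM (3421 to 3473) in VCaP parental and 3518 CPM (3488 to 3549) in VCaP–ENZ48. As a ratio, its highest library lay closer to its lowest than for any of the other 9 genes. The ratio between the VCaP libraries was 0.03 (0.013 to 0.046) and turned to -0.26 under TMM and -0.20 under median-of-ratios scaling. For LNCaP–ENZ168 over VCaP–ENZ48 it was -0.08 (-0.098 to -0.052), or -0.73 relative to the median of all genes. Pseudogene copies of HSP90AB1 took 0.533%, 1.83% and 4.23% of the UMIs of gene and copies together, in the order above, so reads of these genes could be split between rows.

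RefSeq gives 2 starts for HSP90AA1, and the stretch before the start that holds heat shock element letters is shown because HSP90AA1 differed most between the lines among the abundant members. It lies at chr14:102087045-102087234 of GRCh38.p14, minus strand, and is the 190 bases before the start, printed 5′ to 3′. Capitals mark GAANNTTC and TTCNNGAA, each its own reverse complement, so both strands are covered, and the 2 motifs overlap by 3 letters where units follow each other.
HSP90AA1: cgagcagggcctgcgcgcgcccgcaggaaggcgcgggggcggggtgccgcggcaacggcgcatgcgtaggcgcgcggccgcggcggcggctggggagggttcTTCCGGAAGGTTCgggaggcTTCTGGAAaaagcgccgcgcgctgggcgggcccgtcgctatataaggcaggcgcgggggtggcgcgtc
Of 35116 RefSeq promoter windows, 11.6% hold either motif in the 250 bases before the start. A TTCNNGAA that runs into a GAANNTTC by a shared GAA is found once here and in 0.248% of windows. A window of HSP90AB1, of HSPA8 and of HSPD1 holds this run too, and none of the windows of HSPH1 or HSPE1 holds any of these motifs. A match describes the letters of the window and is not a binding measurement.

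HSPA8 is the constitutive cytosolic HSP70 and HSPA1A and HSPA1B are its stress-inducible relatives. HSPA8 (chromosome 11, 123057489 to 123063230, minus strand) was at 1346 CPM (1318 to 1375) in LNCaP–ENZ168, 1228 CPM (1213 to 1244) in VCaP parental and 1253 CPM (1234 to 1271) in VCaP–ENZ48. The intervals of the VCaP libraries overlapped and LNCaP–ENZ168 was a little higher. The ratio was 0.03 (0.00047 to 0.056) between the VCaP libraries and 0.10 (0.067 to 0.14) for LNCaP–ENZ168 over VCaP–ENZ48, and both turned negative under TMM (-0.26 and -0.43) and median-of-ratios scaling (-0.20 and -0.39).

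HSPA1A and HSPA1B are neighbouring genes of 1 exon on chromosome 6 (31815543 to 31817946 and 31827738 to 31830254, plus strand) that encode nearly identical proteins. HSPA1A gave 1 UMI in LNCaP–ENZ168, 69 UMIs in VCaP parental and 93 UMIs in VCaP–ENZ48, which are 0.158 CPM (0.0040 to 0.883), 3.54 CPM (2.75 to 4.47) and 6.50 CPM (5.25 to 7.97). HSPA1B gave 230, 147 and 276 UMIs, which are 36.4 CPM (31.9 to 41.5), 7.53 CPM (6.36 to 8.85) and 19.3 CPM (17.1 to 21.7). Almost all HSPA1 UMIs of LNCaP–ENZ168 were thus assigned to HSPA1B, whereas the VCaP libraries had UMIs in both rows. Of the 451 windows of 50 bases in the last 500 bases of the reference transcript, HSPA1A shares 22.2% with HSPA1B and HSPA1B shares 1.33% with HSPA1A, so the assignment between the rows is uncertain for part of the reads. The upstream 250 bases are 93.6% identical. The 190 bases before each start are shown because the rows of these copies differed in their levels, HSPA1A from chr6:31815353-31815542 and HSPA1B from chr6:31827548-31827737 of GRCh38.p14, plus strand, with GAANNTTC in capitals, the motif that 5.78% of windows hold.
HSPA1A: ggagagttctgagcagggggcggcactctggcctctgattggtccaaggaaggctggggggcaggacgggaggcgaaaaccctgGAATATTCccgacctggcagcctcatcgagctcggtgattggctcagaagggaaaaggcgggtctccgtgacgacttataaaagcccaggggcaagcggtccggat
HSPA1B: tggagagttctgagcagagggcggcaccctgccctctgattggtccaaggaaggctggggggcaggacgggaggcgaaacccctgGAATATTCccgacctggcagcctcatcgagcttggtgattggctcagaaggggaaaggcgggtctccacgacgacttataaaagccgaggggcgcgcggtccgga
Each holds the motif once, 106 and 105 bases before the start.

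Summed over both rows, the inducible HSP70 genes reached 36.6 CPM (32.02 to 41.6) in LNCaP–ENZ168, 11.1 CPM (9.64 to 12.6) in VCaP parental and 25.8 CPM (23.2 to 28.6) in VCaP–ENZ48. The intervals did not overlap. VCaP–ENZ48 over VCaP parental gave 1.15 (0.97 to 1.47) for the sum, 1.25 (1.06 to 1.66) for HSPA1B, above 94.3% of all genes tested, and 0.73 (0.41 to 1.35) for HSPA1A. HSPA1B was among the genes tested only through its level in VCaP–ENZ48, so its place among them gives no support. The HSPA1B ratio ran from 0.72 to 1.60 over 13 alternatives, and was 0.72 in the 138 and 127 cells whose barcode ended in a resolved base. In LNCaP–ENZ168 over VCaP–ENZ48 the sum gave 0.49 (0.26 to 0.75), which is -0.17 relative to the median of all genes, HSPA1B gave 0.88 (0.66 to 1.17), and HSPA1A gave -2.70, with a counting interval of -10.7 to -2.85 on 1 UMI against 93. HSPA1 genes are also induced when cells are dissociated. Of 13 dissociation and immediate early genes tested, EGR1, ZFP36, BTG2, IER2 and JUNB were at least 2-fold higher in VCaP–ENZ48 than in VCaP parental and ATF3, KLF6 and JUN at least 2-fold lower, beside 8.19% and 6.77% of all genes. EGR1 went from 28.6 to 189 CPM and ATF3 from 48.5 to 14.7 CPM, and FOS, the most abundant, from 1002 to 810 CPM. In LNCaP–ENZ168 against VCaP–ENZ48, ATF3 (244 against 14.7 CPM), DUSP1, JUN and JUNB were at least 2-fold higher and BTG2 (48.0 against 276 CPM) at least 2-fold lower, beside 35.5% and 11.1% of all genes. The list's median ratios were 0.067 and 0.29. The part of these genes in the HSPA1 differences was not tested.

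HSPH1 is an exchange factor of HSP70 and DNAJB1 a J-domain protein that loads it with clients. HSPH1 (chromosome 13, 31134973 to 31162388, minus strand) was at 164 CPM (154 to 175) in LNCaP–ENZ168, 103 CPM (98.5 to 107.5) in VCaP parental and 55.7 CPM (51.9 to 59.7) in VCaP–ENZ48. All intervals were apart. The ratio was -0.88 (-1.01 to -0.77) between the VCaP libraries, above only 8.94% of all genes tested, and kept its sign over 13 alternatives (-1.16 to -0.68). Between the lines under ENZ it was 1.54 (1.43 to 1.70), with a range of 1.02 to 1.66.

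DNAJB1 (chromosome 19, 14514769 to 14560391, minus strand, overlapping TECR on the other strand) was at 114 CPM (106 to 123) in LNCaP–ENZ168, 46.5 CPM (43.6 to 49.7) in VCaP parental and 33.5 CPM (30.6 to 36.6) in VCaP–ENZ48. The order of the libraries was that of HSPH1. The ratio was -0.46 (-0.64 to -0.31) between the VCaP libraries and 1.74 (1.60 to 1.94) for LNCaP–ENZ168 over VCaP–ENZ48, above 86.1% of all genes tested. Among cells with at most 4 UMIs of S and G2M phase genes after thinning, 103 in VCaP parental and 570 in VCaP–ENZ48, the ratio between the VCaP libraries was 0.17, so its sign depended on which cells were compared. RefSeq gives 3 starts for DNAJB1. The 190 bases before the one with motifs, chr19:14518398-14518587 of GRCh38.p14, minus strand, are shown with GAANNTTC in capitals for comparison with the HSP70 genes.
DNAJB1: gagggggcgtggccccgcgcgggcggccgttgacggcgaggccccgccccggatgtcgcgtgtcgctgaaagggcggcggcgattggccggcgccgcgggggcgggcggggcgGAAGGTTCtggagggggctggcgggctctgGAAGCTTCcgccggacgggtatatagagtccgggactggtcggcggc
The motif occurs in 2 places here and in none of the 2 other windows of DNAJB1.

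HSPB1 (also known as HSP27) is a small heat shock protein that forms large oligomers and holds unfolded proteins. HSPB1 (chromosome 7, 76302673 to 76304295, plus strand) gave 685 UMIs or 108.5 CPM (100.5 to 116.9) in LNCaP–ENZ168, 12 UMIs or 0.615 CPM (0.318 to 1.07) in VCaP parental and 14 UMIs or 0.979 CPM (0.535 to 1.64) in VCaP–ENZ48. The gene was thus well detected in LNCaP–ENZ168, and a few UMIs were found in each VCaP library. LNCaP–ENZ168 over VCaP–ENZ48 was 111-fold by CPM, 5.79 on the log2 scale of CPM + 1, with an interval of 6.04 to 7.67 for the ratio of counts. That ratio lay above 99.7% of all genes tested. HSPB1 was among these genes only through its level in LNCaP–ENZ168, so its place among them gives no support. The ratio ran from 4.25 with a pseudocount of 5 CPM to 6.65 with one of 0.1 CPM. Between the VCaP libraries the ratio was 0.29 (-0.55 to 1.91), so a difference was not detectable at this depth, and the interval still allows a large one.

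In LNCaP–ENZ168, 42.6% of cells had an HSPB1 UMI (39.4 to 45.8%), against 1.20% in VCaP parental and 1.48% in VCaP–ENZ48, although LNCaP–ENZ168 was the shallowest library. After thinning the shares were 16.6%, 0% and 0.218%. The exact interval for 0 of 997 thinned cells of VCaP parental reaches 0.369%. One pseudogene row, HSPB1P1, gave 0, 0 and 1 UMI, and shares 21.7% of the 50-base windows at the end of the transcript. The stretch before the HSPB1 start, chr7:76302483-76302672 of GRCh38.p14, plus strand, is shown because this gene differed most between the lines, again with GAANNTTC in capitals.
HSPB1: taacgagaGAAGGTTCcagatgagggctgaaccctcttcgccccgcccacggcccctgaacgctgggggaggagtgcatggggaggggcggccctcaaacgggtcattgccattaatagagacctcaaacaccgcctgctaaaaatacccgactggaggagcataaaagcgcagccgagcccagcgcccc
The motif occurs once, 182 bases before the start.

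HSPD1 (also HSP60) is the chaperonin of the mitochondrial matrix and HSPE1 (also HSP10) its co-chaperonin. HSPD1 (chromosome 2, 197486584 to 197516737, minus strand) was at 1423 CPM (1393 to 1452) in LNCaP–ENZ168, 1719 CPM (1701 to 1737) in VCaP parental and 967 CPM (951 to 984) in VCaP–ENZ48. HSPE1 (197500140 to 197503449, plus strand, inside the span of HSPD1) was at 307 CPM (294 to 321), 661 CPM (650 to 673) and 388.5 CPM (378 to 399). Both genes were highest in VCaP parental, and the lowest library was VCaP–ENZ48 for HSPD1 and LNCaP–ENZ168 for HSPE1, with all intervals apart. VCaP–ENZ48 over VCaP parental was -0.83 (-0.86 to -0.80) for HSPD1 and -0.77 (-0.81 to -0.72) for HSPE1, above only 9.95% and 11.7% of all genes tested. These ratios ran from -1.12 to -0.71 and from -1.06 to -0.55 over 13 alternatives. For LNCaP–ENZ168 over VCaP–ENZ48 they had opposite signs, 0.56 (0.52 to 0.59) for HSPD1 and -0.34 (-0.41 to -0.26) for HSPE1, and under TMM scaling 0.025 and -0.87.

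Of the 451 end windows of HSPE1, 49.2%, the highest share among the 10 genes, occur in transcripts of 10 other genes, the most in the readthrough gene HSPE1-MOB4, which had 0, 0 and 1 UMI in the tables. Pseudogene rows held 0.920%, 1.55% and 3.63% of the UMIs of gene and copies for HSPE1 and 0.981%, 1.29% and 3.54% for HSPD1. With pseudogene rows added the HSPD1 ratio between the VCaP libraries was -0.80. The 2 genes start head to head, 105 bases apart by their nearest RefSeq starts, and the 104 bases between these starts are shown because both genes were lower together in VCaP–ENZ48. They lie at chr2:197500275-197500378 of GRCh38.p14, plus strand, the direction of HSPE1, and hold none of the motifs above.
HSPD1-HSPE1: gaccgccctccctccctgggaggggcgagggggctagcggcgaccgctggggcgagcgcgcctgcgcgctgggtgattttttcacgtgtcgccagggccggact

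Detection was compared after thinning each cell to 2000 UMIs, which left out 1 cell of LNCaP–ENZ168 and 30 of VCaP–ENZ48. A UMI of HSP90AB1 was found in 99.7% of thinned cells in each library. HSP90AA1 was found in 98.6%, 87.5% and 84.8% of cells (100%, 100% and 98.3% before thinning), in the order LNCaP–ENZ168, VCaP parental and VCaP–ENZ48. HSPA8 was found in 91.2%, 89.0% and 88.0% (99.0%, 100% and 98.6% before). These abundant genes therefore had UMIs in most cells of every library. HSPD1 was found in 89.7%, 95.7% and 78.4% (98.4%, 100% and 95.8% before), and HSPE1 in 40.1%, 73.6% and 50.3% (70.1%, 99.9% and 86.2% before). Both followed the order of their CPM. HSPH1 was found in 27.1%, 18.6% and 10.8% (58.5%, 77.3% and 42.0% before) and DNAJB1 in 20.7%, 7.92% and 6.76% (46.9%, 54.2% and 31.8% before). Before thinning both were found most often in VCaP parental, the deepest library. HSPA1B was found in 7.64%, 1.40% and 4.36% (20.6%, 13.1% and 22.3% before) and HSPA1A in 0%, 0.602% and 0.981% (0.106%, 6.42% and 8.87% before). In all, 4 genes in LNCaP–ENZ168 and 5 in each VCaP library had a UMI in at least 50% of thinned cells. The share of all genes past this limit was not taken. HSPE1 in VCaP–ENZ48 lay at the limit itself, with an interval of 47.0 to 53.6%.

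**Figure D3:**
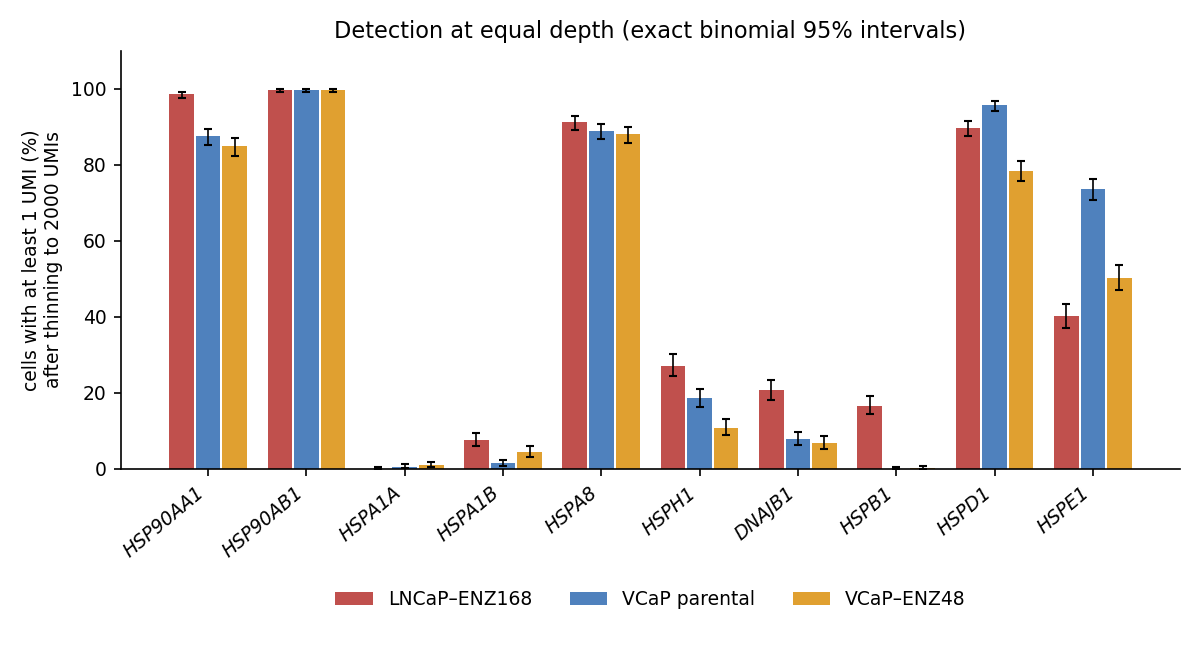
Share of cells with at least 1 UMI of each gene after every cell was thinned to 2000 UMIs. Bars start at 0, colours are libraries and black lines are exact binomial 95% intervals. HSPE1 is found in 73.6% of VCaP parental cells against 40.1% and 50.3% in the others, and HSPB1 in 16.6% of LNCaP–ENZ168 cells against 0% and 0.218%.

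The spread between cells was taken at 2000 UMIs per cell. For counts that vary by sampling alone the variance over the mean is 1. It was 1.70, 1.28 and 1.39 for HSP90AA1 and 1.40, 1.45 and 1.51 for HSP90AB1, and HSPD1 had 1.44, 1.15 and 1.36. HSP90AA1 in LNCaP–ENZ168 and HSP90AB1 in VCaP–ENZ48 were the 2 cases of at least 1.5, whereas thinning to 4000 UMIs gave 4, 3 and 4 such genes and thinning to 1000 UMIs none in these 2 libraries. The share of all genes past 1.5 was not taken. As the count moved with the UMIs per cell, values of genes with few UMIs cannot be set against those of the HSP90 genes. HSPH1, DNAJB1 and HSPA1B lay between 0.984 and 1.08, apart from HSPA1B in VCaP–ENZ48 with 1.35. There the highest thinned cell had 4 HSPA1B UMIs, and the top 1% of cells held 33.3% of them. That share was 71.4% in VCaP parental, where no thinned cell had more than 1 HSPA1B UMI, and 18.4% in LNCaP–ENZ168. With so few UMIs the share alone does not show that HSPA1B was concentrated in few cells.

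Co-expression was weak. Over the thinned cells of a library, which share depth and preparation, the 45 pairs of genes had median Pearson correlations of 0.021, 0.023 and 0.018 on log2(UMIs + 1), with no value for pairs with HSPA1A in LNCaP–ENZ168 and with HSPB1 in VCaP parental. The highest were HSP90AB1 with HSPD1 in LNCaP–ENZ168 (r = 0.18, Spearman's rho = 0.18, 943 cells) and in VCaP–ENZ48 (r = 0.20, rho = 0.20, 917 cells). In VCaP parental it was HSP90AA1 with HSPA8 (r = 0.13, rho = 0.12, 997 cells). With thinning to 1000 UMIs 2, 0 and 2 pairs reached 0.1, and to 4000 UMIs 10, 9 and 7 pairs. At 2000 UMIs it was 5, 5 and 6 pairs, mostly among HSP90AA1, HSP90AB1, HSPA8 and HSPD1, the genes with most UMIs in total. The others took in HSPH1 or HSPE1, each with HSP90AB1 or HSPD1. The share of all gene pairs past 0.1 was not taken. Among other genes of at least 50 CPM, the highest r with HSPD1 was 0.22, 0.11 and 0.17. Of these genes 95% had r with HSPD1 below 0.082, 0.059 and 0.079. HSPD1 with HSPE1 gave 0.026, 0.12 and 0.096. HSPA8 with HSPE1 gave -0.14 in LNCaP–ENZ168, the lowest value of any pair. Counts per cell are sparse, so these values are given as a description.

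**Figure D4:**
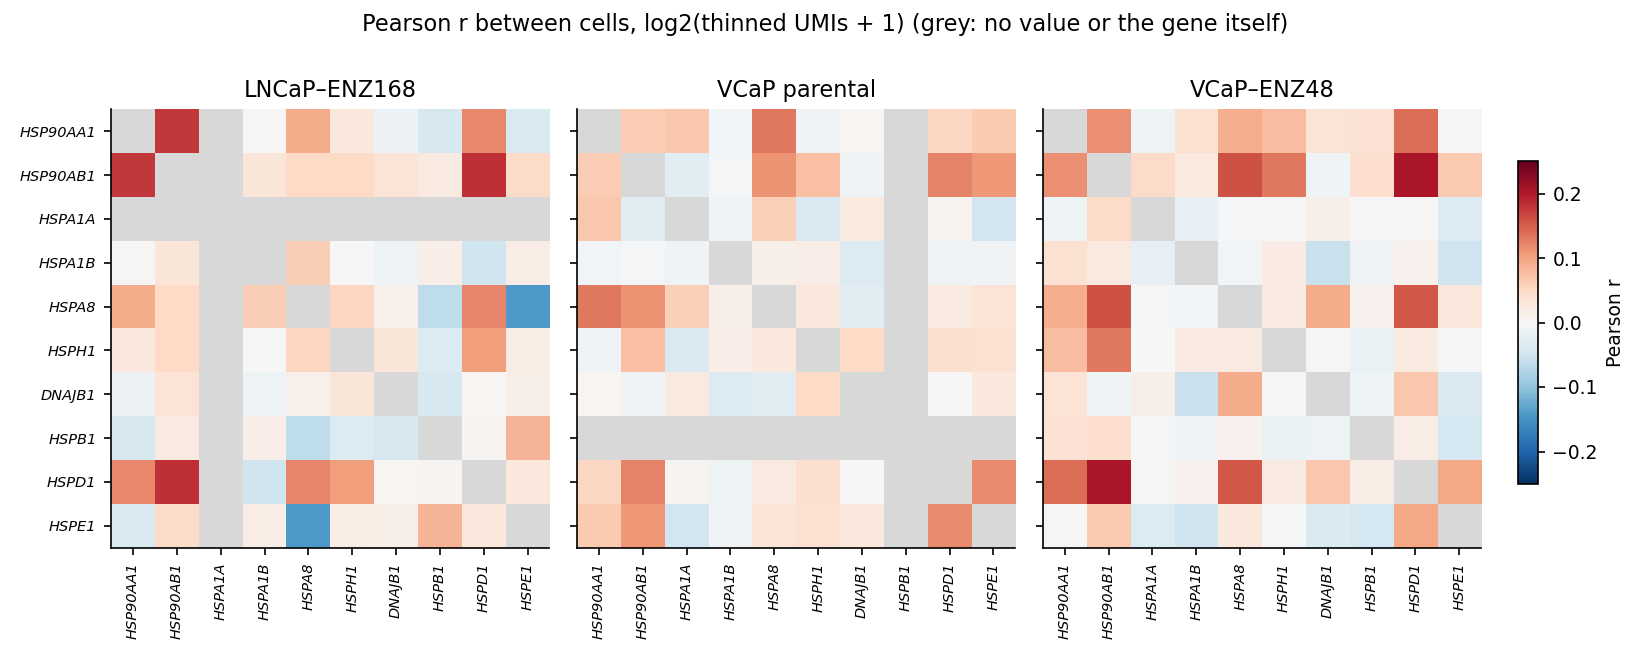
Pearson correlation between pairs of the 10 genes over the cells of each library, on log2(UMIs + 1) after thinning to 2000 UMIs. Red is above 0, blue below 0, and grey marks the gene itself or a pair without a value. The highest value, 0.20, is HSP90AB1 with HSPD1 in VCaP–ENZ48.

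Genes most like a member were then listed by the same correlation, among 3886, 2946 and 2717 other genes of at least 50 CPM. For HSP90AA1 the first genes in LNCaP–ENZ168 were TUBB4B, MCM7, SSRP1, TUBA1B and TK1, with r from 0.15 to 0.17, and in VCaP parental RRM1, PCNA, TUBA1B, CENPU and STMN1, with r from 0.12 to 0.14. In VCaP–ENZ48 they were THBS1, PAICS, CHGB, GULP1 and HACD3 (0.13 to 0.14). For HSPD1 the first genes were NCL, TUBA1B, TUBB, RACK1 and BIRC5 in LNCaP–ENZ168 (0.20 to 0.22), SMC3, RPL15, PPIA, TXN and STIP1 in VCaP parental (0.11), and NCL, RPL15, PARK7, GAPDH and RPS6 in VCaP–ENZ48 (0.15 to 0.17). For HSPA1A and HSPA1B summed they were BTBD7, RAB11A, SPATS2, CYB561A3 and SLC38A9 in LNCaP–ENZ168 (0.11 to 0.15), HNRNPUL1, RPP30, CISD1, HDAC1 and RPL26 in VCaP parental (0.099 to 0.11) and PRPF4B, CYHR1, CALU, LAPTM4A and XPO1 in VCaP–ENZ48 (0.12 to 0.15). For the HSPA1 sum, 95% of the genes compared had r below 0.058, 0.055 and 0.066 in these libraries. Only 72, 20 and 49 thinned cells had a UMI of that sum. The genes named are the highest of all those compared, and how high r runs among unrelated genes was not tested.

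Within each library, cells were ordered by their thinned UMIs of 97 S and G2M phase genes and split into 3 equal groups, of which the low and the high one were compared. HSP90AA1 went from 2669 to 3309 CPM in LNCaP–ENZ168, from 931 to 1263 CPM in VCaP parental and from 1081 to 1206 CPM in VCaP–ENZ48. Its ratio, 0.31, 0.44 and 0.16, lay above 79.9%, 85.6% and 70.4% of all genes of at least 10 CPM. HSP90AA1 was thus higher in the high group of each library. HSPH1 was too, at 144 and 211 CPM, 89.2 and 107 CPM, and 48.7 and 66.1 CPM. Its ratio, 0.55, 0.26 and 0.43, lay above 90.4%, 76.9% and 93.3% of all genes of at least 10 CPM. HSPA8 had ratios of 0.26, 0.15 and 0.17. DNAJB1 went from 36.3 to 61.2 CPM in VCaP parental, a ratio of 0.74, and had ratios of -0.01 and 0.13 in LNCaP–ENZ168 and VCaP–ENZ48. HSP90AB1 took the other direction in VCaP parental, from 3716 to 3179 CPM, and went from 3193 to 3654 CPM in LNCaP–ENZ168. Its ratio in VCaP parental, -0.23, lay above 29.2% of genes, within their quartiles of -0.27 and 0.23. HSPD1 went from 1258 to 1737 CPM in LNCaP–ENZ168 and from 1709 to 1694 CPM in VCaP parental. HSPA1B went from 43.9 to 33.2 CPM in LNCaP–ENZ168, from 6.06 to 8.60 CPM in VCaP parental and from 19.2 to 20.0 CPM in VCaP–ENZ48, and HSPB1 from 115.9 to 111.5 CPM in LNCaP–ENZ168. For the 10 genes summed the ratios were 0.28, -0.0038 and 0.076.

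**Figure D5:**
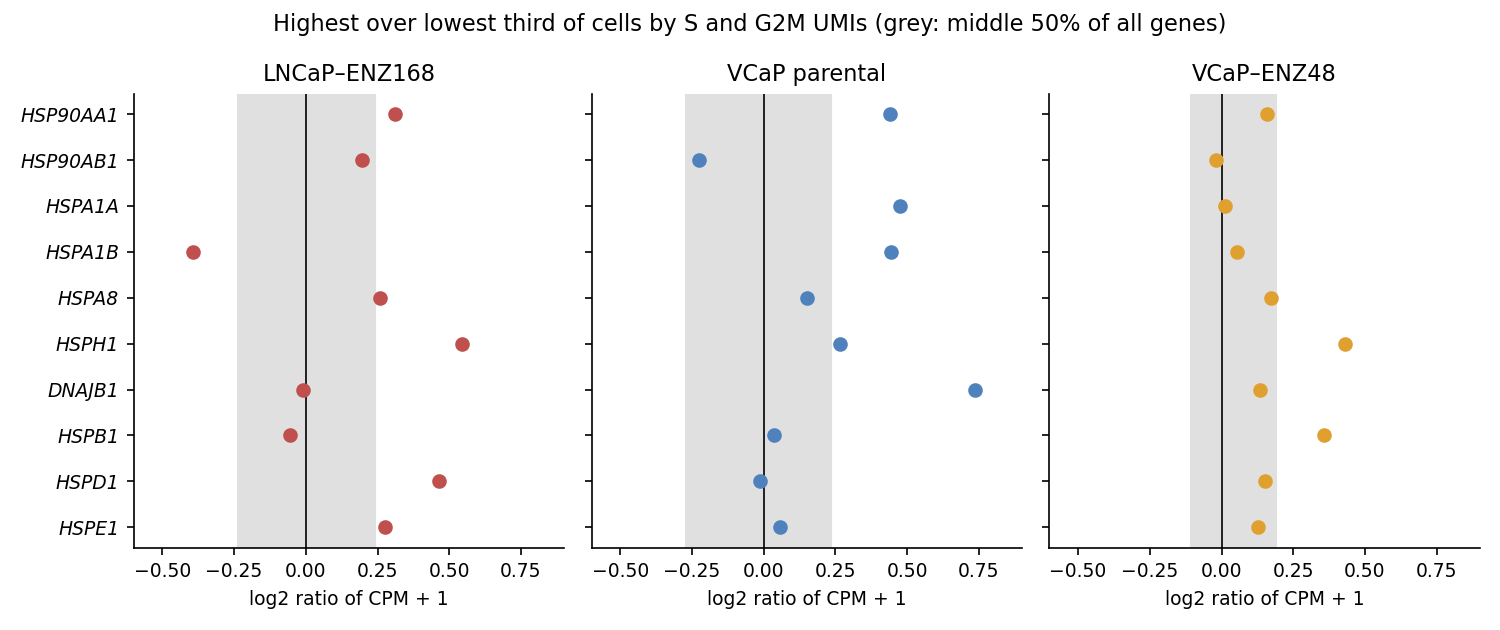
Log2 ratio of CPM + 1 for the high over the low of 3 equal groups of cells by S and G2M phase UMIs, by gene and library. The grey band is the middle 50% of all genes of at least 10 CPM in that library. HSP90AA1 and HSPH1 lie above 0 in all libraries, and DNAJB1 in VCaP parental is the farthest from 0 at 0.74. HSPA1A in LNCaP–ENZ168 has no point because it had no UMI in either group, and HSPB1 in the VCaP libraries rests on 4 to 6 UMIs a group.

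Median S and G2M phase UMIs differed between the libraries themselves. The high group had a median of 17 in LNCaP–ENZ168, 54 in VCaP parental and 6 in VCaP–ENZ48, and the low group 4, 6 and 2. In cells with at most 4 of these UMIs the VCaP ratios were 0.35 for HSP90AA1, 0.14 for HSPA8, 0.17 for DNAJB1, -0.68 for HSPH1, -0.83 for HSPD1 and -0.55 for HSPE1, and HSPA1B had 1.60. The ratios of HSPH1, HSPD1, HSPE1 and HSPA1B thus kept their signs in these cells, 103 of VCaP parental and 570 of VCaP–ENZ48. No intervals were taken for these ratios. HSPA1B had only 36 UMIs in the 332 cells of the VCaP parental low group, which hold these 103, so its ratio rests on few UMIs.

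Split by mitochondrial share in the same way, HSPA8 was lower in the high than in the low group of each library, 1180 against 1437 CPM in LNCaP–ENZ168, 1125 against 1303 CPM in VCaP parental and 1188 against 1318 CPM in VCaP–ENZ48. DNAJB1 was lower as well, 94.8 against 124 CPM, 40.6 against 54.9 CPM and 30.3 against 36.4 CPM. With mitochondrial UMIs left out of the total, the HSPA8 ratios were -0.17, -0.17 and -0.06. The median of all genes, with mitochondrial UMIs in the total, was -0.15, -0.0020 and -0.11, and on that scale the HSPA8 ratio lay above 30.7%, 15.6% and 44.7% of genes and the DNAJB1 ratio above 20.0%, 4.16% and 28.5%. HSPA1B in VCaP–ENZ48 was at 16.1 against 25.3 CPM. By depth, HSPE1 was at 344 CPM in the deepest and 249 CPM in the shallowest group of LNCaP–ENZ168, at 421 and 299.8 CPM in VCaP–ENZ48, and at 663 and 680 CPM in VCaP parental. HSPD1 in VCaP–ENZ48 was at 1009 and 779 CPM. In VCaP–ENZ48 both mitochondrial genes thus had lower levels in shallow cells. When cells weighed equally the ratios between the VCaP libraries were -0.94 for HSPD1 and -0.93 for HSPE1.

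Further genes were counted by list, 98 genes in 9 lists, with a mean of at least 10 CPM required. The lists were other genes of the chaperone network and the dissociation and immediate early genes given above. Among 11 HSP90 co-chaperones, FKBP5, which binds HSP90, was at least 2-fold lower in VCaP–ENZ48 than in VCaP parental (23.8 against 66.9 CPM) and no gene was at least 2-fold higher. Of all genes 6.77% were at least 2-fold lower and 8.19% at least 2-fold higher. The median ratio of the list was -0.65, beside -0.066 for all genes and -0.23 for those with a mean of at least 50 CPM. Among the co-chaperones STIP1, which links HSP70 to HSP90, was the most abundant and had 486 against 853 CPM. Between the lines under ENZ, CDC37, PPID and NUDC were at least 2-fold higher and STIP1 at least 2-fold lower, beside 35.5% and 11.1% of all genes. The median of the list was 0.40 beside 0.65.

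Among the partners of HSP70, no gene passed 2-fold between the VCaP libraries, beside 8.19% of all genes higher and 6.77% lower. The median was -0.70 for 2 other HSP70 and HSP110 genes, -0.17 for 8 HSP70 co-chaperones and -0.12 for 10 other J-domain genes. For all genes it was -0.066, and -0.23 with a minimum of 50 CPM. HSPA4, a relative of HSPH1, went from 140 to 89.4 CPM, DNAJA1 from 708 to 369 CPM, and ST13, which binds HSP70, from 203 to 349 CPM. In LNCaP–ENZ168 against VCaP–ENZ48, 3 of 4, 4 of 9 and 4 of 12 genes of these lists were at least 2-fold higher, with medians of 1.60, 0.92 and 0.59, beside 35.5% of all genes and their median of 0.65. They included HSPA4L, HSPA4 and HSPA12A, then BAG3, STUB1 and BAG1, then DNAJB2, DNAJB4 and DNAJC7. Of these, HSPA4L, HSPA12A, BAG3, DNAJB2 and DNAJB4 were under 10 CPM in VCaP–ENZ48 and passed the minimum only through LNCaP–ENZ168. In the other direction DNAJA4 passed it only through VCaP–ENZ48. BAG3, a partner of small heat shock proteins and HSP70, gave 24.9 against 2.38 CPM. ST13, DNAJA4 and DNAJB6 were at least 2-fold lower, and DNAJA4 had no UMI in LNCaP–ENZ168 against 600 in VCaP–ENZ48.

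In the remaining lists, apart from the dissociation and immediate early genes given above, no gene passed 2-fold between the VCaP libraries. Of all genes 8.19% were at least 2-fold higher and 6.77% at least 2-fold lower. Of 8 genes listed by symbol as other small heat shock proteins only HSPB11 passed 10 CPM. It had 103 CPM in VCaP parental, 61.3 CPM in VCaP–ENZ48 and 109 CPM in LNCaP–ENZ168. Whether its product acts as a small heat shock protein was not examined. The median was -0.36 for 14 other mitochondrial chaperones and proteases, -0.51 for 14 genes of the chaperonin TRiC and prefoldin and -0.58 for 3 heat shock factors and their inhibitor. For all genes it was -0.066, and -0.23 with a minimum of 50 CPM. HSPA9, the mitochondrial HSP70, went from 944 to 653 CPM, CCT8 from 812 to 521 CPM and HSBP1 from 264 to 177 CPM. Of the mitochondrial list, 5 of 15 genes were at least 2-fold higher in LNCaP–ENZ168 than in VCaP–ENZ48 (LONP1, CLPP, GRPEL2, AFG3L2 and CLPB), near the 35.5% of all genes, and none at least 2-fold lower. LONP1, at 8.74 CPM in VCaP–ENZ48, passed the minimum only through LNCaP–ENZ168. Of 14 chaperonin genes TCP1, CCT6A and CCT3 were at least 2-fold higher and PFDN4 at least 2-fold lower, beside 35.5% and 11.1% of all genes. HSF1, HSF2 and their inhibitor HSBP1 did not pass 2-fold, and HSF4 was under the minimum, with 11.2 against 0.979 CPM. The medians were 0.78, 0.19 and 0.76, beside 0.65 for all genes.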

How the data were processed

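The deposited tables hold raw counts of UMIs, genes by cell barcodes, 1 per library with 1000 barcodes. The authors aligned reads to GRCh38 with STAR and counted UMIs with the Drop-seq tools and Picard on a Gencode annotation, expecting 1000 cells. Multi-mapped reads and near-identical copies can therefore be missing or split. The genes and lists were chosen with earlier results of these data known. The genes named from each list were its most abundant one and up to 3 each way past 2-fold, and further members of counts of 5 or fewer were named after their values were seen.

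Cells with at least 300 genes, 500 UMIs and at most 25% mitochondrial UMIs were kept, which left 6313283 UMIs in LNCaP–ENZ168, 19515202 in VCaP parental and 14301287 in VCaP–ENZ48. UMIs were summed over cells and scaled to CPM. A gene missing from a table was counted as 0, and 3 UMIs were taken as the limit that a count of 0 allows. Sums have Poisson, ratios conditional and shares Clopper-Pearson intervals. S and G2M genes came from Seurat, TMM factors from edgeR. Steps were tested on simulated data. Positions are from GENCODE v44, a later version than the authors used, and promoters from RefSeq (GRCh38.p14), where all 10 genes were matched by symbol in 16 windows. The software was edgeR 4.0.16 and Seurat 5.3.0 in R 4.3.3, and scipy 1.17.1, matplotlib 3.10.9, pandas 2.3.3 and numpy 2.4.6 in Python 3.11.15. Alternatives covered cells, scaling, pseudocount, expression minimum, thinning and pseudogene rows.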

Additional observations from a re-analysis of the deposited data

How the results depend on the processing

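With 1 library per group, depth and library preparation limit every comparison, and intervals do not cover them. No paired analysis was possible because there was 1 library in each group, and none could be left out. Of the member ratios under 13 alternatives each, 165 stayed within the counting interval, widened where needed to take in the ratio of CPM + 1 itself, 83 left it with the same sign or with an interval that held 0, and 12 changed sign. Between the VCaP libraries HSP90AB1 was -0.015 in cells low in S and G2M genes, -0.018 with equal weight of cells, -0.26 under TMM and -0.20 under median-of-ratios scaling. HSPA8 was -0.016 with equal weight, -0.26 under TMM and -0.20 under median-of-ratios scaling, and DNAJB1 was 0.17 in cells low in S and G2M genes. For LNCaP–ENZ168 over VCaP–ENZ48, HSPA8 was -2.6e-05 in cells low in S and G2M genes, -0.43 under TMM, -0.39 under median-of-ratios scaling and -0.15 without mitochondrial and ribosomal protein genes. The cause was not tested. The median of the members between the VCaP libraries was 0.065 in cells low in S and G2M genes and 0.12 without mitochondrial and ribosomal protein genes. For LNCaP–ENZ168 over VCaP–ENZ48 it was 0.20 under TMM, 0.23 under median-of-ratios scaling, 0.47 without mitochondrial and ribosomal protein genes and 0.56 with HSPA1A and HSPA1B summed. The count of members at least 2-fold higher in VCaP–ENZ48 than in VCaP parental was 0 with resolved barcodes, under TMM and with a pseudocount of 5 CPM, and that of members at least 2-fold lower was 3 under TMM and 2 under median-of-ratios scaling. None was at least 2-fold lower in LNCaP–ENZ168 with HSPA1A and HSPA1B summed. The share of UMIs held by the 10 genes in LNCaP–ENZ168 was 0.961% with no cell filter, 0.989% and 1.00% with at most 15% and 10% mitochondrial UMIs, and 1.21% without mitochondrial and ribosomal protein genes. In VCaP parental it was 0.818% with resolved barcodes, 1.14% without mitochondrial and ribosomal protein genes and 0.846% with pseudogene rows. In VCaP–ENZ48 it was 0.731% with no cell filter, 0.741% and 0.744% with at most 15% and 10% mitochondrial UMIs, 1.09% without mitochondrial and ribosomal protein genes and 0.760% with pseudogene rows. Genes with a variance over mean of at least 1.5 numbered 0 in LNCaP–ENZ168 and VCaP–ENZ48 with thinning to 1000 UMIs and 4, 3 and 4 (LNCaP–ENZ168, VCaP parental, VCaP–ENZ48) with thinning to 4000 UMIs. They numbered 0 in VCaP–ENZ48 with at most 15% mitochondrial UMIs or resolved barcodes. Pairs with r of at least 0.1 numbered 2, 0 and 2 with thinning to 1000 UMIs, and 10 and 9 in LNCaP–ENZ168 and VCaP parental with thinning to 4000 UMIs. They numbered 10 in VCaP–ENZ48 with resolved barcodes. For the 10 genes summed, the ratio of the high over the low group of cells in VCaP–ENZ48 was -0.038 by mitochondrial share and 0.12 by depth with at most 15% mitochondrial UMIs, and 0.042 by S and G2M UMIs without barcodes above 3 times the median depth. With resolved barcodes it was -0.053 by depth and 0.26 by S and G2M UMIs in VCaP–ENZ48, and -0.052 by S and G2M UMIs in VCaP parental. The number of genes detected in at least 50% of thinned cells was 4 or 5 in each library under every alternative run.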
